A study of Mus musculus with 28 samples.

Results

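The immunity-related GTPases described here are the products of 6 mouse genes, Irgm1, Irgm2, Igtp, Iigp1, Tgtp1 and Tgtp2. They were chosen by name, as members of a gene family, and make up 6 of the 55341 gene names in the files. All 6 had enough counts to be tested. Their RNA was measured in 28 whole AB1-HA tumors. AB1-HA is a mouse mesothelioma line that carries the influenza hemagglutinin (HA) antigen, and it was grown under the skin of BALB/c.AusBP mice.

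Every tumor came from a different mouse of the same strain and was taken 7 days after treatment began. The PBS group (n = 4) received vehicle. The ICB group (n = 5) received immune checkpoint blockade, which was 100 µg of anti-CTLA-4 and 100 µg of anti-PD-L1 followed by 2 additional doses of 100 µg of anti-PD-L1, all into the peritoneum. The 5-FU group (n = 5) received 75 mg/kg of 5-fluorouracil into a vein, and the cisplatin group (n = 4) received 6 mg/kg of cisplatin into the peritoneum. The 5-FU+ICB group (n = 5) and the cisplatin+ICB group (n = 5) received the chemotherapy together with the antibodies. The comparisons asked what each chemotherapy, ICB and their combination did to the RNA of the tumor.

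Immunity-related GTPases are large GTP-binding proteins that mouse cells make in response to interferons, above all interferon gamma, the cytokine of activated T cells and NK cells. Irgm1, Irgm2 and Igtp are regulatory members that sit on the cell's own membranes and keep the others inactive there, while Iigp1, Tgtp1 and Tgtp2 are effector members that coat and break the vacuoles in which parasites such as Toxoplasma live. In a tumor they can be made by malignant cells and by leukocytes alike, so a whole tumor does not tell which cell made the RNA.

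The sequence before the RefSeq start of the genes is shown here as a description, since interferon signals act through short motifs in such regions. Whether the motifs bear on the levels of the members in these tumors was not tested. RefSeq promoter windows (GRCm38.p6) were found for 5 of the 6 members, all except Iigp1, and were searched over the 250 bases before the annotated start. The motif TTCNNNGAA, the form of a gamma-activated site, and the motif that reads GAAA, then any 2 bases, then GAAA again, the core of an interferon-stimulated response element, were searched on both strands. Capitals mark the matches, and each sequence runs 5′ to 3′ on the strand of its gene. Irgm2 stands at chr11:58214727-58214976 (plus strand), Igtp at chr11:58199306-58199555 (plus strand), Tgtp1 at chr11:48992259-48992496 (minus strand), Tgtp2 at chr11:49064213-49064462 (minus strand) and Irgm1 at chr11:48871428-48871457 (minus strand). By the GENCODE gene spans given later, the windows of Irgm2, Tgtp1 and Irgm1 lie inside the annotated gene, so the RefSeq start used for them is internal, while those of Igtp and Tgtp2 lie before it. For Tgtp1, 12 bases inside an annotated exon were left off. The whole 250-base window of Irgm1 lies in annotated exons, and only 30 bases of it around the matches are given.
Irgm2: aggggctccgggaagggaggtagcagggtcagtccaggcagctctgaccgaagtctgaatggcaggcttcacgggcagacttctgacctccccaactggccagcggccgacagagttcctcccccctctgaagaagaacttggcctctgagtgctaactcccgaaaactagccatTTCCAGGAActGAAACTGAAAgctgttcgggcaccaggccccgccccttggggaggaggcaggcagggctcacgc
Igtp: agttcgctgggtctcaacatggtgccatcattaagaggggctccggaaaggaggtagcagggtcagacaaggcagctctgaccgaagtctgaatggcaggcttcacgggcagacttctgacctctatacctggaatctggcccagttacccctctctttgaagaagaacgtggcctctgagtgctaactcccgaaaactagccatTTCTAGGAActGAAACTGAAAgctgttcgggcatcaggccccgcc
Tgtp1: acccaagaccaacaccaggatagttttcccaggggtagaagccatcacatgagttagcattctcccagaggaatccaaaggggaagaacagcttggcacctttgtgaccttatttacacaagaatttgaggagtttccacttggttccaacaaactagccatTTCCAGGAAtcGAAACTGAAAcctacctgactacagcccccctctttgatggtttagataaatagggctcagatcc
Tgtp2: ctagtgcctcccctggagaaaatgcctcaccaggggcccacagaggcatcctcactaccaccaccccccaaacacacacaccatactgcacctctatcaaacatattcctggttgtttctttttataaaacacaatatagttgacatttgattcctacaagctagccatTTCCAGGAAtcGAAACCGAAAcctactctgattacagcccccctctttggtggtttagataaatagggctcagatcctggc
Irgm1: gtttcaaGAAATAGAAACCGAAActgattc

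Irgm2, Igtp, Tgtp1 and Tgtp2 each held both motifs, with 2 bases between them and the gamma-activated site farther from the start. The TTCNNNGAA match began 75 bases before the start of Irgm2, 45 before that of Igtp, 88 before that of Tgtp1 and 81 before that of Tgtp2. Irgm1 held no TTCNNNGAA in its window but 2 overlapping matches to the response element core, which began 30 and 24 bases before the start. Among all 32851 promoter windows of the same length, 7.02% held TTCNNNGAA, 2.98% held the response element core and 0.332% held both. The promoters are related by sequence and are not independent examples. The longest identical run was 55 bases between Irgm2 and Igtp and 27 bases between Tgtp1 and Tgtp2. A match is a description of the letters and was not measured as binding.

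The tumors had between 23541733 and 33950805 estimated counts each, at which 3 counts correspond to 0.0822 to 0.159 CPM. That limit covers counting error only. Levels are given as CPM, that is, counts relative to the library size after TMM scaling over the 28 tumors. The labelled tissue was checked against mesothelial markers. Mesothelin (Msln) had group means of 64.6 to 311 CPM and Pdpn of 77.1 to 126 CPM, while Upk3b, Lrrn4, Calb2 and Wt1 had group means no higher than 1.54 CPM, Upk3b being at 0 in every ICB, 5-FU and 5-FU+ICB tumor. Some tumors stood apart from their groups. Over all tested genes, the correlation of a tumor with the mean of the rest of its group was 0.852 for cisplatin+ICB tumor 1, 0.916 for 5-FU+ICB tumor 5 and 0.927 for 5-FU+ICB tumor 2, and it was at least 0.961 for each other tumor. For the members, comparisons with 5-FU+ICB or cisplatin+ICB tumors are also given without these tumors where that changed a call or moved a value by over 1.5 times. Calls of the other genes, given later as lists, were not followed without these tumors.

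In PBS tumors every member was detected in each tumor. Irgm1 was at 134, 94.0, 151 and 154 CPM in PBS tumors 1 to 4, Irgm2 at 72.2, 73.5, 78.6 and 79.6 CPM and Igtp at 81.8, 84.8, 91.9 and 96.8 CPM. Iigp1 was at 127, 198, 159 and 149 CPM, Tgtp1 at 14.3, 21.8, 19.4 and 18.4 CPM and Tgtp2 at 109.9, 133, 111 and 130.2 CPM. The effector Iigp1 and the regulator Irgm1 varied most among these 4 tumors, with SDs of 29.9 and 27.7 CPM, while the SD of Irgm2 was 3.65 CPM.

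ICB alone raised all 6 members. Among the regulators, Irgm1 was at 454, 416, 461, 541 and 467 CPM in ICB tumors 1 to 5. Irgm2 was at 304, 317, 275, 357 and 294 CPM. Igtp was at 502, 517, 475, 601 and 482 CPM. The lowest ICB tumor was above the highest PBS tumor for each of these genes. Among the effectors, Iigp1, whose product is the best studied vacuole-coating member, was at 980.3, 839, 621, 898 and 779 CPM. Tgtp1 was at 178, 187, 149.7, 255 and 187 CPM. Tgtp2 was at 501, 456, 397, 509 and 427 CPM. Here too the lowest ICB tumor was above the highest PBS tumor.

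The group mean of Irgm1 went from 133 ± 27.7 CPM (SD, n = 4) in PBS tumors to 468 ± 45.7 CPM (SD, n = 5) in ICB tumors, a log2 fold change of 1.85 with a standard error (SE) of 0.21. Tgtp1 had the steepest rise, its mean being 18.5 ± 3.14 CPM in PBS and 191 ± 38.7 CPM in ICB tumors. Its log2 fold change of 3.39 (SE 0.37) is a 10.5-fold difference. The other log2 fold changes were 2.05 for Irgm2, 2.57 for Igtp, 2.40 for Iigp1 and 1.94 for Tgtp2, with SEs of 0.20 to 0.29. A gene was called a DEG where edgeR's quasi-likelihood test gave a Benjamini-Hochberg adjusted p under 0.05 over all genes tested and the absolute log2 fold change was over 0.5. The adjusted p of the members lay between 1.45e-05 for Irgm2 and 5.75e-05 for Iigp1. All 6 members were DEGs, beside 19% of the 17916 genes tested that were called higher, and the groups did not overlap for 6 of 6 members, beside 15.8% of genes that were higher without overlap. The median log2 fold change was 2.23 over the members and -0.03 over all genes.

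**Figure D1:**
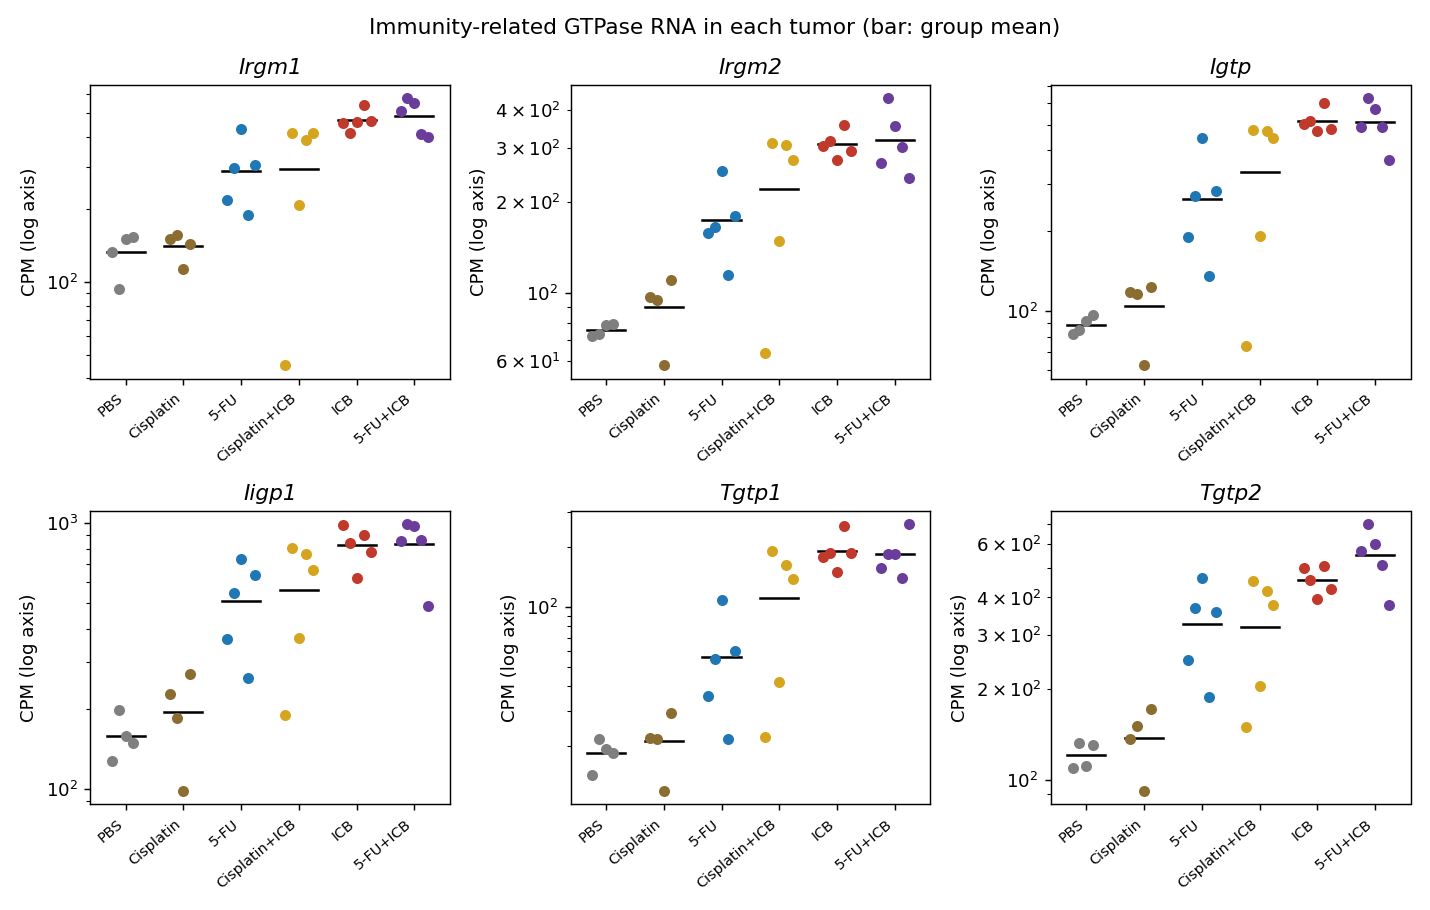
CPM of each gene in each tumor (points, log axis that differs between panels) by treatment group, with the group mean as a bar. The ICB and 5-FU+ICB groups have the highest Igtp means, 516 and 509.6 CPM, and the cisplatin+ICB tumors spread widely, from 45.3 CPM of Irgm1, the lowest of the 28 tumors, to levels near those of ICB tumors.

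5-FU without antibodies also raised all 6 members, less evenly from tumor to tumor. Iigp1 was at 365, 544, 729.6, 262 and 635 CPM in 5-FU tumors 1 to 5. Igtp was at 189, 269, 444, 135 and 282 CPM. Irgm1 was at 219, 298, 430.4, 190.3 and 306 CPM. Tumor 3 was the highest and tumor 4 the lowest of the group in these genes, and also in Irgm2 (252 and 115 CPM) and Tgtp2 (465 and 188 CPM). Tgtp1 was at 35.9, 55.1, 108, 21.7 and 60.3 CPM, and its lowest 5-FU tumor was just under the highest PBS tumor, so these groups overlapped. The log2 fold changes against PBS were 1.14 for Irgm1, 1.21 for Irgm2, 1.59 for Igtp, 1.69 for Iigp1, 1.62 for Tgtp1 and 1.44 for Tgtp2, with SEs of 0.20 to 0.34. EdgeR's adjusted p lay between 0.00159 for Tgtp2 and 0.00596 for Tgtp1. All 6 members were called, beside 9.98% of genes called higher, and 5 of 6 did not overlap between the groups, beside 9.27% of genes. With all 6 groups in one fit, Irgm1 was no longer called (edgeR adjusted p = 0.0717), the range over its alternatives being 2.02e-06 to 0.0717.

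Tumor 3 of the 5-FU group, where the members were highest, also had the most Ptprc RNA of that group (CD45, a surface protein of leukocytes), at 331 CPM, and tumor 4 had the least, at 97.7 CPM. Cd8a, a marker of cytotoxic T cells, was at 76.6 CPM in tumor 3 and 5.41 CPM in tumor 4. In a bulk tumor, more leukocytes and more RNA per cell cannot be told apart.

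Cisplatin without antibodies left the members near the PBS level. Iigp1 was at 227, 184, 98.1 and 271 CPM in cisplatin tumors 1 to 4. Igtp was at 117, 116, 62.6 and 123 CPM. Tgtp2 was at 137, 150.3, 92.1 and 172 CPM. Tumor 3 was below every PBS tumor in these genes, while tumors 1 and 4 were above every PBS tumor, so the groups overlapped. The groups overlapped for the other members as well, with Irgm1 between 113 and 157 CPM, Irgm2 between 58.1 and 110.2 CPM and Tgtp1 between 11.9 and 29.3 CPM. The log2 fold changes were 0.09 for Irgm1 to 0.31 for Iigp1, with SEs of 0.29 to 0.48. EdgeR called 0 members beside 0% of genes in this comparison, 0 members had an unadjusted p under 0.05 beside 1.78% of genes, and DESeq2 called 0 members beside 0.00571% of genes.

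The direct comparison of the chemotherapies gave log2 fold changes of 0.95 for Irgm2 to 1.3998 for Tgtp1 in favor of 5-FU. Every 5-FU tumor was above every cisplatin tumor in Irgm1, Irgm2, Igtp and Tgtp2, which is 4 of 6 members beside 5.29% of genes. In Iigp1 the lowest 5-FU tumor, at 262 CPM, lay just under the highest cisplatin tumor, at 271 CPM. None was a DEG by edgeR (0.362% of genes were called), with adjusted p from 0.0513 for Tgtp2 to 0.177 for Irgm1. The unadjusted p was under 0.05 for 6 members beside 15.5% of genes, and DESeq2 called 5 members beside 1.83% of genes, all but Irgm1. The call thus depended on the test, and edgeR itself called 1 member without 5-FU tumor 1 or 4.

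The 5-FU+ICB tumors were at the level of the ICB tumors. Igtp was at 491, 627, 574, 489 and 367 CPM in tumors 1 to 5. Iigp1 was at 858, 991, 978, 867 and 487 CPM. Tgtp2 was at 568, 698, 599, 513 and 378 CPM. Tumor 2 was the highest of the 28 tumors in each of these genes and tumor 5 the lowest of its group. Irgm1 followed the same order at the ends, with 578 CPM in tumor 2 and 400.1 CPM in tumor 5, and so did Irgm2, with 437 and 238 CPM. Tgtp1 departed from it, being at 157, 184, 185, 140.2 and 261 CPM, with tumor 5 the highest.

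Against PBS, the log2 fold changes of 5-FU+ICB were 1.91 for Irgm1, 2.09 for Irgm2, 2.54 for Igtp, 2.42 for Iigp1, 3.35 for Tgtp1 and 2.201 for Tgtp2. All 6 were called by edgeR, beside 21.9% of genes called higher, and 6 of 6 did not overlap with PBS, beside 10.9% of genes. All 6 stayed called without tumors 2 and 5. Against ICB alone, the log2 fold changes ran from -0.05 (SE 0.31) for Tgtp1 to 0.26 (SE 0.21) for Tgtp2. By edgeR 0 members were DEGs beside 0.229% of genes, 0 members had an unadjusted p under 0.05 beside 10.9% of genes, and DESeq2 called 0 members beside 0.93% of genes. The sign of this comparison for Irgm2, Igtp, Iigp1 and Tgtp1 changed when a tumor was left out, and without 5-FU+ICB tumors 2 and 5 the log2 fold changes ran from -0.24 for Tgtp1 to 0.30 for Tgtp2.

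Adding ICB to 5-FU gave higher values in every member than 5-FU alone, by log2 fold changes of 0.77 for Irgm1, 0.88 for Irgm2, 0.95 for Igtp, 0.73 for Iigp1, 1.73 for Tgtp1 and 0.76 for Tgtp2. By edgeR 0 members were DEGs beside 0.0112% of genes, the adjusted p being 0.0807 for Tgtp1 and up to 0.193 for Iigp1. The unadjusted p was under 0.05 for 6 members beside 16.6% of genes, and DESeq2 called 5 members, all but Iigp1, beside 1.53% of genes. Tgtp1 was the 1 member whose groups did not overlap, beside 0.91% of genes. EdgeR called 5 members without 5-FU tumor 3 and 4 without 5-FU+ICB tumor 2, in fits that called 640 and 1948 genes in all, where the fit with every tumor called 2. It called 0 members, and 97 genes in all, without 5-FU+ICB tumors 2 and 5 together.

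The cisplatin+ICB tumors fell into different levels. Igtp was at 73.7, 476, 192, 473 and 446 CPM in tumors 1 to 5. Iigp1 was at 189, 808, 370.4, 763 and 666 CPM. Irgm1 was at 45.3, 413, 209, 388 and 416 CPM. Tumors 2, 4 and 5 were near the ICB tumors, tumor 3 lay between, and tumor 1 was below every PBS tumor in Igtp, Irgm1 and Irgm2. Irgm2 was lowest in tumor 1, at 63.7 CPM, and highest in tumor 2, at 311 CPM. Tgtp1 was at 22.3, 190.3, 42.1, 163 and 139 CPM and Tgtp2 at 149, 454, 204, 419.8 and 377 CPM. In both Tgtp genes even tumor 1 lay above the highest PBS tumor.

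Against PBS, edgeR called 5 members higher in cisplatin+ICB tumors, beside 4.7% of genes, with log2 fold changes of 1.55 for Irgm2, 1.92 for Igtp, 1.84 for Iigp1, 2.61 for Tgtp1 and 1.42 for Tgtp2 (SEs of 0.28 to 0.49). Irgm1 had a log2 fold change of 1.16 (SE 0.41) and an edgeR adjusted p of 0.0976, the range over its alternatives being 0.000527 to 0.298. The groups did not overlap for 2 of 6 members, Tgtp1 and Tgtp2, beside 3.43% of genes. Without cisplatin+ICB tumor 1, all 6 were called and the log2 fold changes were 1.51 for Irgm1 to 2.94 for Tgtp1. Without PBS tumor 1, 3 or 4, edgeR called 0 members, and then 0 of all genes, and it called 0 members when only the PBS and cisplatin+ICB tumors were fitted.

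Against ICB alone, the members had log2 fold changes of -0.78 for Tgtp1 to -0.48 for Irgm2 in cisplatin+ICB tumors. EdgeR called 0 members beside 0% of genes in that comparison, 0 had an unadjusted p under 0.05 beside 15.9% of genes, and DESeq2 called 0 members beside 0.151% of genes. Without cisplatin+ICB tumor 1 the log2 fold changes against ICB were smaller, from -0.47 for Tgtp1 to -0.21 for Irgm2, and edgeR again called 0 members. Against cisplatin alone, the log2 fold changes were 1.07 for Irgm1 to 2.40 for Tgtp1. EdgeR called 0 members beside 0% of genes here as well, with adjusted p from 0.0693 for Tgtp1 to 0.234 for Irgm1, while 6 members had an unadjusted p under 0.05 beside 14.2% of genes and DESeq2 called 5 members, all but Irgm1, beside 2.24% of genes. EdgeR called 6 members without cisplatin+ICB tumor 1 and 5 without cisplatin+ICB tumor 3, in fits that called 2114 and 536 genes in all where the fit with every tumor called 0. Between the combinations, 5-FU+ICB had the higher means, by log2 fold changes of 0.54 for Irgm2 to 0.78 for Tgtp2. In edgeR 0 members passed beside 0.297% of genes, 2 members (Irgm1 and Tgtp2) had an unadjusted p under 0.05 beside 25.7% of genes, and DESeq2 called 0 members beside 4.44% of genes. Without cisplatin+ICB tumor 1 the log2 fold changes between the combinations were 0.30 for Irgm2, 0.36 for Igtp, 0.36 for Iigp1, 0.46 for Irgm1, 0.47 for Tgtp1 and 0.60 for Tgtp2.

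**Figure D2:**
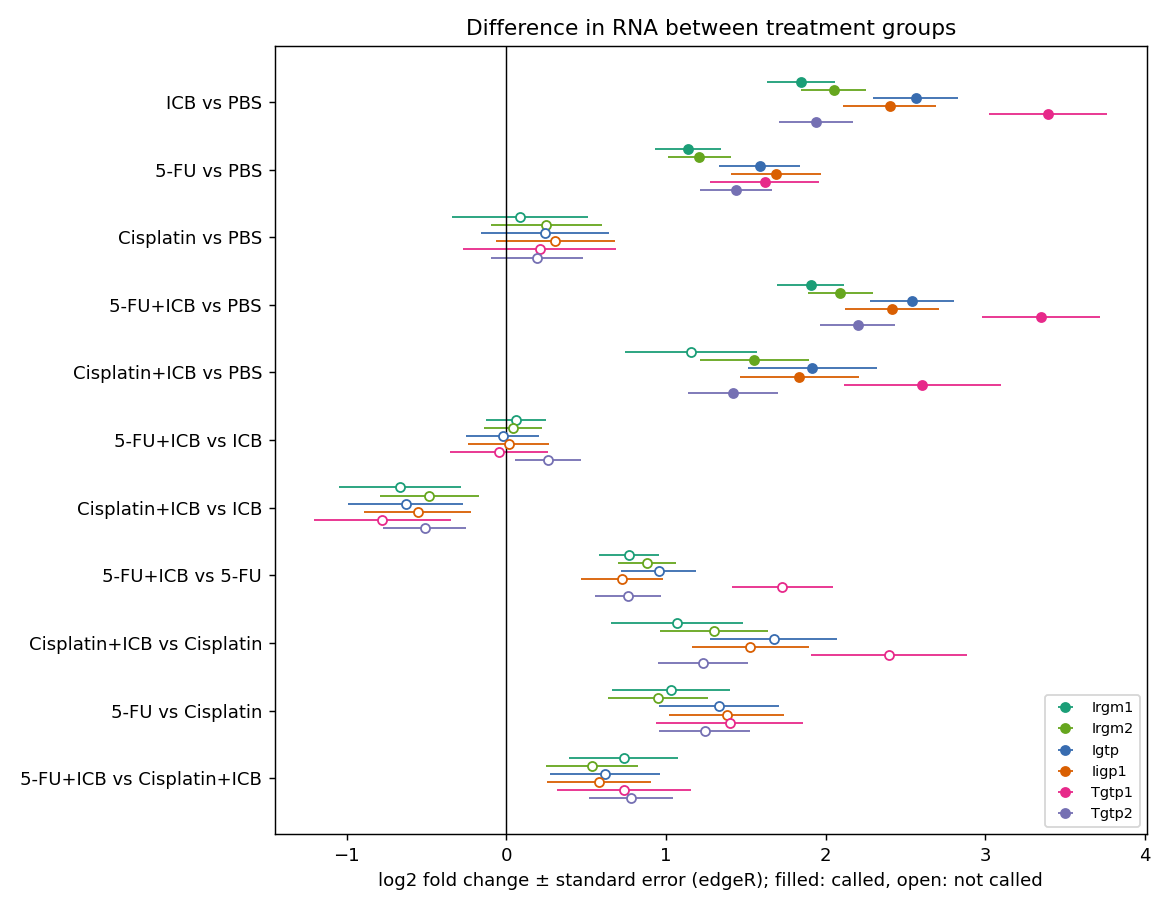
Log2 fold change of each gene in 11 comparisons of treatment groups, with bars of ± 1 SE from edgeR and filled points for DEGs. The filled points are those against PBS in ICB, 5-FU, 5-FU+ICB and, except for Irgm1, cisplatin+ICB tumors, and Tgtp1 lies farthest to the right in the comparisons of ICB, 5-FU+ICB and cisplatin+ICB with PBS.

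The order of the groups by mean log2 CPM was PBS, cisplatin, 5-FU, cisplatin+ICB and then ICB and 5-FU+ICB for Irgm2, Igtp, Iigp1 and Tgtp1, and it had cisplatin+ICB below 5-FU for Irgm1 and Tgtp2. ICB was above 5-FU+ICB for Igtp, Iigp1 and Tgtp1 and below it for Irgm1, Irgm2 and Tgtp2. Of the neighbours in that order, edgeR called no member between cisplatin and PBS, between 5-FU and cisplatin, between cisplatin and cisplatin+ICB, between cisplatin+ICB and either ICB or 5-FU+ICB, or between 5-FU+ICB and ICB. 5-FU was compared with neither cisplatin+ICB nor ICB. The means of cisplatin+ICB include its tumor 1, which stood apart. By median CPM, cisplatin+ICB was above 5-FU in Irgm1 (388 and 298 CPM) and in Tgtp2 (377 and 360 CPM). Averaged over the 6 members, the mean log2 CPM was 6.36 ± 0.11 (SD, n = 4) in PBS, 6.53 ± 0.43 (SD, n = 4) in cisplatin, 7.70 ± 0.58 (SD, n = 5) in 5-FU, 7.84 ± 1.07 (SD, n = 5) in cisplatin+ICB, 8.70 ± 0.16 (SD, n = 5) in ICB and 8.74 ± 0.24 (SD, n = 5) in 5-FU+ICB tumors.

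For 5-FU and ICB the fitted interaction was negative in all 6 members, but none passed edgeR's threshold. The interaction, which is the effect of 5-FU in the presence of ICB minus its effect without ICB, was -1.08 for Irgm1, -1.17 for Irgm2, -1.61 for Igtp, -1.68 for Iigp1, -1.67 for Tgtp1 and -1.18 for Tgtp2, with SEs of 0.27 to 0.45. In edgeR 0 members passed beside 0.0893% of genes, with adjusted p of 0.0657 to 0.0668. The unadjusted p was under 0.05 for 6 members beside 23.9% of genes, and DESeq2 called 6 members beside 4.37% of genes. EdgeR called 6 members without PBS tumor 3 or 5-FU tumor 4, beside 1698 and 81 genes in all, and 5 without PBS tumor 4 or 5-FU+ICB tumor 4, beside 1017 and 950 genes, where the fit with every tumor called 16. For cisplatin and ICB the interaction was -0.98 for Tgtp1 to -0.70 for Tgtp2. EdgeR called 0 members beside 0% of genes for it, 0 had an unadjusted p under 0.05 beside 7.14% of genes, and DESeq2 called 0 members beside 0.00571% of genes. Without cisplatin+ICB tumor 1 the interaction was -0.71 for Tgtp1 to -0.47 for Irgm1, and that of Irgm1 moved by over 1.5 times.

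Tgtp1 and Tgtp2 are near-identical neighbours, and their counts are less certain than those of the other members. In the GENCODE M21 transcripts, 84.4% of the distinct 31-base words of Tgtp1 also occurred in another gene, and 83.2% of the words of Tgtp1 occurred in Tgtp2, while 90.5% of the words of Tgtp2 occurred in another gene and 89.2% in Tgtp1. The figure was 15.9% for Igtp, which shared them with Irgm2, 10.7% for Irgm2, 6.92% for Iigp1 and 2.88% for Irgm1. Reads from shared stretches were divided between the genes by the authors' estimation. Summed into one feature before the fit, the Tgtp pair had log2 fold changes of 2.24 (SE 0.24) for ICB, 1.47 (SE 0.23) for 5-FU, 2.42 (SE 0.24) for 5-FU+ICB, 1.65 (SE 0.32) for cisplatin+ICB and 0.19 (SE 0.33) for cisplatin against PBS, and all of these except cisplatin were called by edgeR.

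The share of the pair that was assigned to Tgtp1 changed with ICB. This measure was chosen after its values were seen. Tgtp1 made up 11.5, 14.1, 14.8 and 12.4% of the Tgtp1 and Tgtp2 counts in PBS tumors 1 to 4 and 26.2, 29.1, 27.4, 33.4 and 30.4% in ICB tumors 1 to 5. The share was 12.6, 13.0, 18.9, 10.3 and 14.4% in 5-FU tumors 1 to 5, where both genes rose in about the same proportion. In 5-FU+ICB tumors 1 to 5 it was 21.6, 20.9, 23.6, 21.5 and 40.8%, tumor 5 standing alone at the top. In cisplatin tumors it lay between 11.5% and 14.6%, and in cisplatin+ICB tumors between 13.0% and 29.5%, with tumors 1 and 3 the lowest.

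The mean share was 13.2% ± 1.53 (SD, n = 4) in PBS and 29.3% ± 2.78 (SD, n = 5) in ICB tumors, a difference of 16.1 percentage points (two-sided exact permutation test p = 0.00794, the smallest these group sizes allow, adjusted p = 0.0291 over 11 comparisons). The difference was 12.5 percentage points for 5-FU+ICB against PBS and 11.9 for 5-FU+ICB against 5-FU, with the same adjusted p in the exact permutation test, and without 5-FU+ICB tumor 5 it was 8.69 and 8.07 percentage points, neither of which passed the exact permutation test. Against ICB, 5-FU+ICB differed by -3.61 percentage points (exact permutation adjusted p = 0.649), and by -7.40 without tumor 5, where the test passed. For 5-FU against PBS it was 0.62 percentage points (exact permutation p = 0.786), and for cisplatin+ICB against PBS 9.72 percentage points (exact permutation adjusted p = 0.140). With any tumor of these groups left out, the exact permutation test no longer passed for ICB or 5-FU+ICB against PBS, since the smallest p it then allows is larger. Whether the shift lies in the RNA or in the division of shared reads was not tested.

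**Figure D3:**
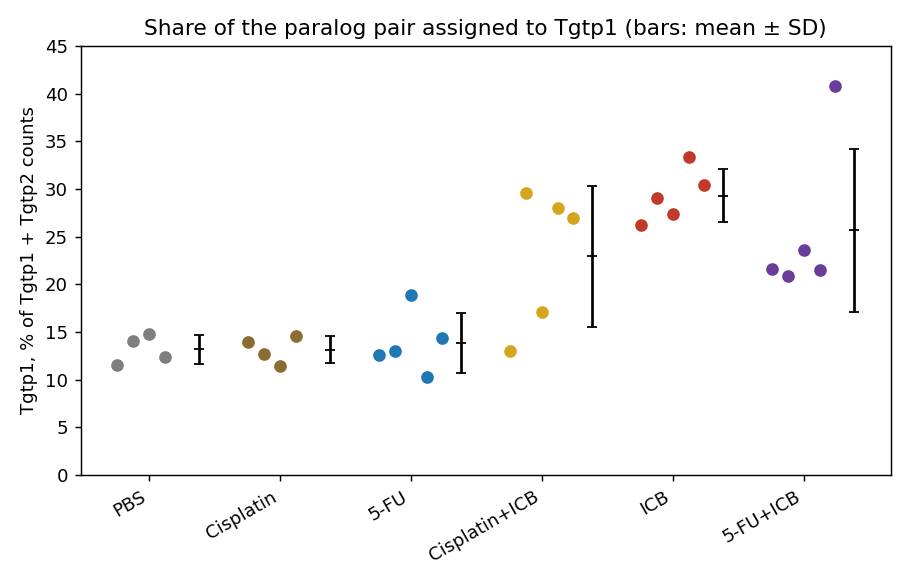
Percent of the summed Tgtp1 and Tgtp2 estimated counts that were assigned to Tgtp1, in each tumor (points) by treatment group, with the mean ± SD beside them. PBS, cisplatin and 5-FU tumors lie between 10.3% and 18.9%, and ICB tumors between 26.2% and 33.4%.

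The genes lie in clusters on the GRCm38 build, with positions from GENCODE M21. Irgm1 (ENSMUSG00000046879.7) is at chr11:48861968-48871683 on the minus strand, Tgtp1 (ENSMUSG00000078922.9) at chr11:48985327-48994172 and Tgtp2 (ENSMUSG00000078921.3) at chr11:49057194-49064206, both on the minus strand. Igtp (ENSMUSG00000078853.8) is at chr11:58199556-58207591 and Irgm2 (ENSMUSG00000069874.7) at chr11:58199618-58222782, both on the plus strand, and 7974 of the 8036 bases of the Igtp gene lie inside the annotated Irgm2 gene, so that reads there cannot be assigned by position alone. Iigp1 (ENSMUSG00000054072.12) is at chr18:60376027-60392634 on the plus strand. All 6 are protein-coding. The share of Irgm2 in the Irgm2 and Igtp counts was 46.1% ± 0.762 (SD, n = 4) in PBS and 37.5% ± 0.540 (SD, n = 5) in ICB tumors, a difference of -8.65 percentage points (two-sided exact permutation test p = 0.00794, the smallest these group sizes allow, adjusted p = 0.0291 over 11 comparisons). The same adjusted p in the exact permutation test was found for 5-FU+ICB against PBS, with -7.73 percentage points, and for cisplatin+ICB against ICB, with 3.88 percentage points. The Irgm2 share was not tested with a tumor left out, where the smallest p the test allows would be larger.

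Across the 28 tumors the members varied together. The Pearson correlation of log2 CPM was 0.90 to 0.99 for the 15 pairs of members, highest for Irgm2 and Igtp. These are descriptions, since the points share treatment groups and since some pairs share reads. By the Spearman correlation with the mean log2 CPM of the members over 28 tumors, among 13328 other genes with a mean count of at least 50, the 8 genes most like them were Gbp3 (0.98), Gbp2b (0.97), Gbp2 (0.97), Gm4951 (0.96), Gbp4 (0.95), Gm4070 (0.94), Gm43802 (0.94) and Parp11 (0.94). The Gbp genes encode guanylate-binding proteins, another family of interferon-induced GTPases, and Gm4951 belongs to the immunity-related GTPase family itself. For genes of the pathway and for cell markers the value was 0.91 for Irf1, 0.83 for Ifng, 0.79 for Cd8a, 0.68 for Ptprc, 0.66 for Csf1r (a macrophage receptor), 0.37 for Isg15 and -0.26 for Ifnb1.

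Some genes of interferon gamma signaling, its targets among them, were called in the same comparisons. Ifng, which encodes interferon gamma itself, was at 0.343 ± 0.0952 CPM (SD, n = 4) in PBS, 13.1 ± 3.04 CPM (SD, n = 5) in ICB, 2.24 ± 1.79 CPM in 5-FU, 0.505 ± 0.244 CPM in cisplatin, 9.12 ± 3.34 CPM in 5-FU+ICB and 6.99 ± 5.79 CPM in cisplatin+ICB tumors. Its log2 fold change was 5.26 (SE 0.57) for ICB and 2.69 (SE 0.52) for 5-FU against PBS. Over all genes, edgeR called 19% higher in ICB, 9.98% in 5-FU, 21.9% in 5-FU+ICB, 4.7% in cisplatin+ICB and 0% in cisplatin tumors against PBS. Of 10 genes of interferon gamma signaling tested, edgeR called 8 higher in ICB, 4 in 5-FU, 9 in 5-FU+ICB, 6 in cisplatin+ICB and 0 in cisplatin tumors against PBS, with none lower. Those called in 5-FU tumors included Ifng, the kinase gene Jak2 (0.76) and Ciita (1.84), the activator of MHC class II genes. Irf1, a transcription factor induced by interferon gamma, rose by 1.94 on the log2 scale in ICB tumors and had a log2 fold change of 0.54 in 5-FU tumors (edgeR adjusted p = 0.0894).

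Other interferon-induced GTPase genes were higher in the same groups. Of 11 guanylate-binding protein genes, edgeR called 11 higher in ICB, 11 in 5-FU, 11 in 5-FU+ICB and 10 in cisplatin+ICB tumors against PBS. Their median log2 fold change was 3.50 in ICB and 2.10 in 5-FU tumors, and Gbp5 had 4.07 and 2.43. In the interaction of 5-FU and ICB, edgeR called 8 of these 11 lower, Gbp5 with -2.59 and Gbp8 with -2.93 among them, beside 0.0893% of genes in either direction. In this interaction edgeR called 0 of all genes with the replicate block, with all 6 groups in one fit, or without 5-FU+ICB tumors 2 and 5. Of 10 other genes of the immunity-related GTPase family tested, 8 were called higher in ICB, 7 in 5-FU, 8 in 5-FU+ICB and 6 in cisplatin+ICB tumors. Gm12250, which encodes the effector Irgb10, rose by 2.69 in ICB and by 1.32 in 5-FU tumors on the log2 scale. Gm4841 rose by 2.44 and Gm12185 by 2.00 in 5-FU tumors, and these were the 2 family genes called in 5-FU against cisplatin, with 1.76 and 1.53. In cisplatin against PBS, edgeR called 0 genes of these lists.

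Genes of type I interferon signaling and its targets were called in part. Of 16 tested, edgeR called 7 higher in ICB, 4 in 5-FU, 9 in 5-FU+ICB and 0 in cisplatin+ICB tumors against PBS, with median log2 fold changes of 0.67, 0.27, 0.62 and 0.37. Over all genes the share called higher was 19%, 9.98%, 21.9% and 4.7%, so a count of 0 of 16 in cisplatin+ICB tumors is near that share. Ifnb1, which encodes interferon beta, had group means of 0.0236 to 0.0550 CPM, under the level of 3 counts. Isg15, a ubiquitin-like protein induced by type I interferon, had a log2 fold change of 0.44 in ICB (edgeR adjusted p = 0.178) and of 0.85 in 5-FU+ICB tumors, where it was called. The members act with the proteins that attach ATG8 to membranes, and with ubiquitin ligases, at parasite vacuoles. Of 14 such partner genes, edgeR called 3 higher (Atg7, Gabarapl1 and Traf6) and 1 lower (Ube2n) in ICB tumors, 2 lower (Gabarapl2 and Atg16l1) in 5-FU tumors, and 0 in cisplatin+ICB tumors. With 5-FU+ICB it called 2 partner genes higher and 1 lower. Over all genes, 18.8% were called lower in ICB, 13% in 5-FU and 18.7% in 5-FU+ICB tumors, and 19%, 9.98% and 21.9% higher, so these counts are near the share over all genes. The median log2 fold change of the partner genes was 0.02 in ICB and -0.29 in 5-FU tumors.

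**Figure D4:**
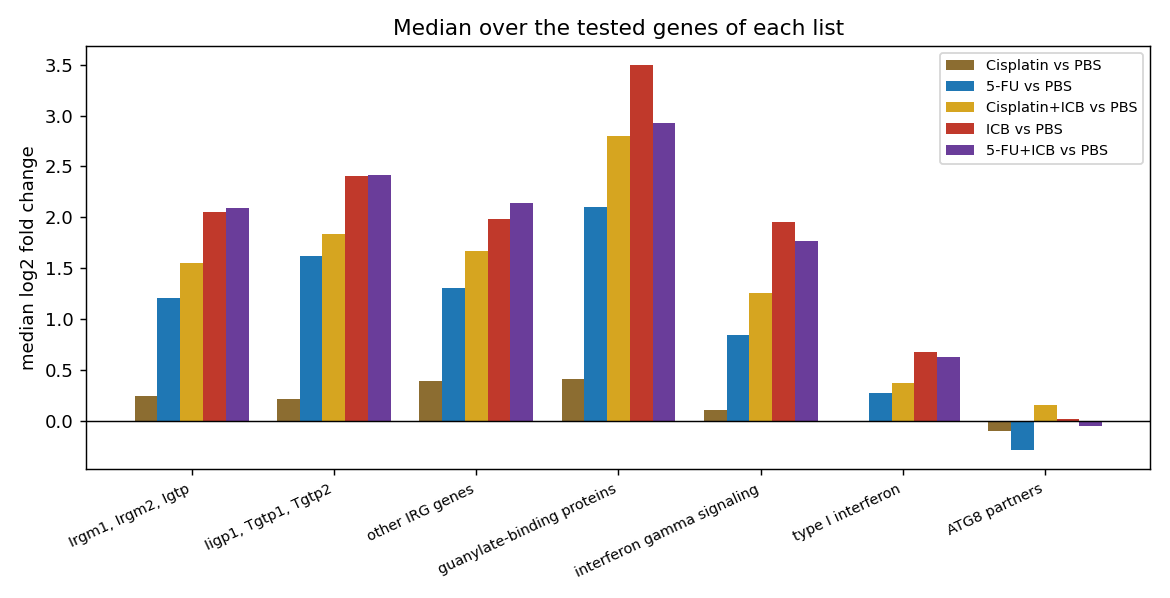
Median log2 fold change against PBS over the tested genes of each list (bars, from 0) in 5 treatment groups. The guanylate-binding proteins reach 3.50 in ICB tumors, the effector and regulatory GTPases 2.40 and 2.05, and the type I interferon and ATG8 lists 0.67 and 0.02.

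Some markers of leukocytes were called higher in the groups where the members were. The NK cell markers Klrb1c and Ncr1 were not called in ICB tumors. Against PBS, edgeR called 8 of 10 T cell and NK markers higher in ICB, 6 in 5-FU, 9 in 5-FU+ICB, 7 in cisplatin+ICB and 0 in cisplatin tumors. It called 11 of 13 myeloid markers in ICB, 4 in 5-FU, 7 in 5-FU+ICB and 5 in cisplatin+ICB tumors. Of 4 B cell markers it called 3 in 5-FU+ICB tumors and 0 in ICB, 5-FU and cisplatin+ICB tumors. Their sum in 5-FU+ICB tumors was 13.4 to 29.97 CPM in tumors 1 to 4 and 770.0 CPM in tumor 5, which stood apart, and their median summed level was 15.02 CPM in PBS and 7.91 CPM in ICB tumors. The summed CPM of the T cell and NK markers was 43.8 to 66.3 in PBS, 28.8 to 80.9 in cisplatin, 61.2 to 586 in 5-FU, 229 to 858 in ICB, 78.6 to 1791 in 5-FU+ICB and 67.4 to 483 in cisplatin+ICB tumors. Ptprc itself rose from 92.1 ± 12.7 CPM (SD, n = 4) in PBS to 365 ± 82.4 CPM (SD, n = 5) in ICB tumors. Relative to Ptprc, as a difference of log2 CPM, Irgm1 was at 0.52 ± 0.49 (SD, n = 4) in PBS and 0.39 ± 0.47 (SD, n = 5) in ICB tumors, Irgm2 at -0.27 and -0.21, and Tgtp2 at 0.40 and 0.35. Iigp1 was at 0.77 ± 0.28 in PBS, 1.19 ± 0.56 in ICB and 1.43 ± 0.30 in 5-FU tumors. Igtp went from -0.05 ± 0.26 to 0.53 ± 0.48, and Tgtp1 from -2.32 ± 0.31 to -0.92 ± 0.61. Markers of other tissues were measured in the same tumors. The summed mesothelial markers, most of whose CPM came from Msln and Pdpn, had a median of 385 CPM in PBS, 201 CPM in ICB and 194 CPM in 5-FU+ICB tumors. Gene by gene, edgeR called 1 of 7 higher (Wt1) and 0 lower in ICB tumors, and 4 higher (Wt1, Gpm6a, Krt19 and Pdpn) and 1 lower (Msln) in 5-FU+ICB tumors. Wt1 was at the low level given above. Over the 10 listed mesothelial genes, the mean log2 CPM was 0.07, -0.01, -0.08, 0.95 and 1.33 in 5-FU+ICB tumors 1 to 5. It was thus highest in tumors 4 and 5, and it was -0.59 to -0.21 in PBS tumors. The skeletal muscle markers had a median of 118 CPM in PBS and 1023 CPM in 5-FU tumors, with 0 of 4 muscle markers called. Of 4 endothelial markers edgeR called 4 higher in 5-FU+ICB, 2 in 5-FU and 1 in ICB tumors. Their sum was 616 CPM in 5-FU+ICB tumor 5 and 150 to 311 CPM in the other tumors of that group. Beside all these marker counts, edgeR called 19% of all genes higher in ICB, 9.98% in 5-FU, 21.9% in 5-FU+ICB and 4.7% in cisplatin+ICB tumors. The 1 of 4 endothelial and 1 of 7 mesothelial markers in ICB tumors are near that share. The part of these cell contents in the members' rise was not tested.

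Tumor 2 of the 5-FU+ICB group had low leukocyte markers and high levels of the members. It also stood apart from its group over all genes, with a correlation of 0.927, and the cause of its levels was not tested. Its Ptprc level was 105 CPM, within the PBS range of 75.0 to 105 CPM, and its summed T cell and NK markers were at 78.6 CPM, and the median of its group was 583 CPM. Cd3e was at 6.76 CPM and Csf1r at 199 CPM. This tumor had the highest level of the 28 tumors in Irgm1, Irgm2, Igtp, Iigp1 and Tgtp2, and the highest mean over the members, 9.03 log2 CPM. Ifng was at 4.34 CPM there, the lowest of the group but above every PBS tumor, and Irf1 was at 513 CPM.

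Tumor 5 of the 5-FU+ICB group was the converse. It had the most Ptprc of the 28 tumors, at 723 CPM, with 1791 CPM of summed T cell and NK markers, 770.0 CPM of B cell markers and 3922 CPM of skeletal muscle markers, and it was the lowest of its group in the members other than Tgtp1. Tumor 1 of the cisplatin+ICB group, where the members were lowest, had Ptprc at 118 CPM, Ifng at 0.848 CPM, and 905 CPM of summed mesothelial markers against a group median of 278. Tumor 3 of that group had Ptprc at 138 CPM and Ifng at 0.913 CPM, while tumors 2, 4 and 5, with the members near the ICB level, had Ifng at 12.4, 12.3 and 8.52 CPM. The part of the cell content of these tumors in the members' levels was not tested.

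**Figure D5:**
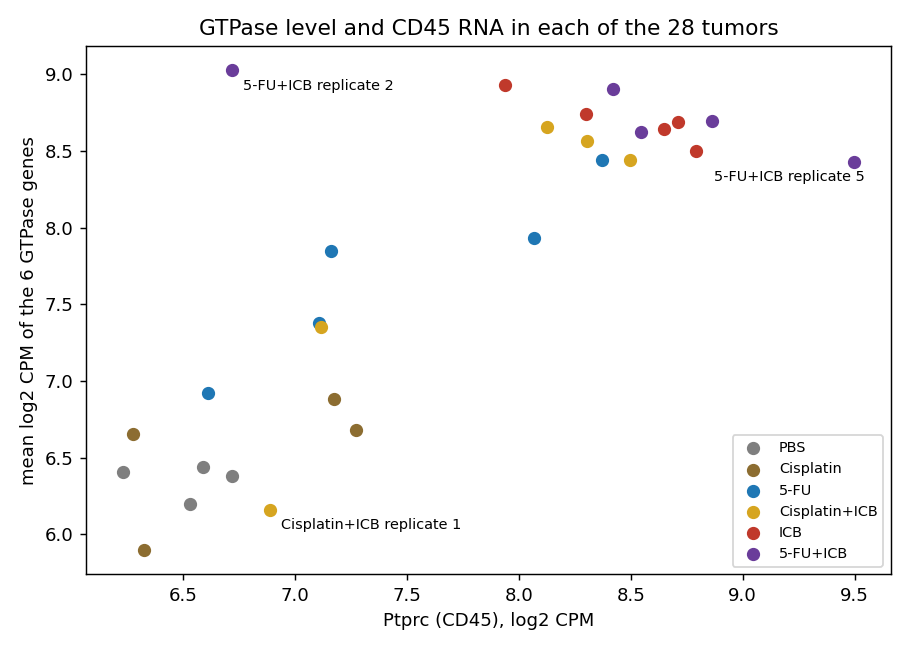
Mean log2 CPM of the 6 genes against the log2 CPM of Ptprc in each of the 28 tumors, colored by treatment group. Tumor 2 of the 5-FU+ICB group is at the top with the Ptprc level of a PBS tumor, and tumor 1 of the cisplatin+ICB group lies at the bottom among PBS and cisplatin tumors.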

How the data were processed

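RNA from whole tumors was sequenced as single-end reads by the authors, who made estimated counts per gene with kallisto 0.46.0 and tximport (GRCm38/mm10, after bcl2fastq 2.20.0.422, per the submitters' processing notes). The deposited estimated counts formed 2 matrices, each holding the same PBS and ICB tumors with identical values, and 23.7% of values were not whole and were rounded. Kallisto divides reads of near-identical genes by estimation, so the values of Tgtp1 and Tgtp2 depend on that step.

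Genes were tested in edgeR 4.0.16 (R 4.3.3, limma 3.58.1) with TMM scaling, filterByExpr and the quasi-likelihood test on the 4 groups of a matrix, or on all 28 tumors for comparisons of the chemotherapies or of the combinations. This left 17916, 17819 and 18521 genes, over which p was adjusted by Benjamini-Hochberg. CPM is TMM-scaled over 28 tumors, with a prior count of 2 on the log2 scale. Totals of 23541733 to 33950805 counts set the precision, and counting error only is covered by the limit of 3 counts. The 6 members were named in full, other genes by role from lists or by likeness (the 8 highest Spearman correlations). Members and lists were chosen with earlier results of these data known. Alternatives were DESeq2 1.42.0, other size factors, filters and fit samples, the replicate number as a block, a summed Tgtp pair and leaving out tumors. The edgeR fit was tested on simulated data for changes between ICB and PBS only. Promoters came from RefSeq and positions from GENCODE M21.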

Additional observations from a re-analysis of the deposited data

Results flagged for a closer look

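Among 48 sets of values tested, 3 held a tumor whose distance from the nearest other tumor of its group, as a share of the group's range, was above the critical value of Dixon's test. Chance flags about 1 in 20 such sets. Cisplatin tumor 3 had an Igtp level of 5.97 log2 CPM, 0.91 of the range from the next tumor. 5-FU+ICB tumor 5 had an Iigp1 level of 8.93 log2 CPM, below the rest of its group (0.80 of the range). The same tumor had 40.8% of the Tgtp1 and Tgtp2 counts on Tgtp1, above the rest of its group (0.86 of the range).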

How the results depend on the processing

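The 6 members stayed called in ICB and in 5-FU+ICB against PBS under every alternative run, and in 5-FU against PBS under every one except all 6 groups in one fit, where Irgm1 missed the threshold, the summed Tgtp pair counting as 1 feature of 5. Counts of members called changed elsewhere, and the cause was not tested. In cisplatin+ICB against PBS edgeR called 2 members with the replicate block (95 genes in all, 1087 without it), 0 with only the compared groups (0 genes in all), and 0 to 6 with a tumor left out, while DESeq2 called 6 (2156 genes). In 5-FU+ICB against 5-FU DESeq2 called 5 (539 genes in all), and edgeR 0 to 5 with a tumor left out. In cisplatin+ICB against cisplatin DESeq2 called 5 (783 genes), edgeR 1 with all 6 groups in one fit (27 genes), and 0 to 6 with a tumor left out. In 5-FU against cisplatin DESeq2 called 5 (668 genes), and edgeR 1 with DESeq2 size factors (59 genes), 1 with at least 10 counts in every tumor (63 genes), 3 with only the compared groups (943 genes), and 0 to 1 with a tumor left out. In the interaction of 5-FU and ICB DESeq2 called 6 (1542 genes), and edgeR 2 with at least 10 counts in every tumor (48 genes) and 0 to 6 with a tumor left out.

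In 5-FU+ICB against ICB the log2 fold change of Iigp1 was -0.0087 with the replicate block, and that of Igtp was 0.0152 without 5-FU+ICB tumors 2 and 5, an alternative added after seeing the data. With a tumor left out it was -0.0774 to 0.12 for Irgm2, -0.0752 to 0.15 for Iigp1, -0.0910 to 0.0689 for Igtp and -0.21 to 0.0735 for Tgtp1, and for Irgm1 in cisplatin against PBS -0.0519 to 0.18. The difference in the Tgtp1 share, also added after seeing the data, was -0.59 to 1.54 percentage points for 5-FU against cisplatin, -0.64 to 1.497 for 5-FU against PBS, -1.03 to 4.41 for 5-FU+ICB against cisplatin+ICB and -0.61 to 0.52 for cisplatin against PBS with a tumor left out. Same-numbered tumors did not deviate together as a set (66 pairs, correlations of -0.63 to 0.66, median -0.02, 21 over 0.1). With so wide a spread, this check cannot exclude that some tumors were paired by number. Apart from cisplatin+ICB against PBS, the replicate block changed no count of members called.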
